A study of Gallus gallus with 24 samples.

Results

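Transcript levels of the coagulation factors and their inhibitors were described in the liver of the chicken across the last days in the egg and the first days after hatch. The set was defined by gene symbol as F2, F7, F9, F10, KLKB1, PROC, PROS1, PROZ, TFPI and SERPINC1. In the array annotation 17 probe sets carried 9 of these 10 symbols, out of 38439 probe sets and 13009 named genes in all, and SERPINC1 is not analysed here. F2, F7, F9, F10 and PROZ had 1 probe set each, KLKB1 and PROC had 2, and PROS1 and TFPI had 4. Probe sets of a gene are numbered by their mean signal over the arrays, brightest first, and the first of them leads the account of the gene. By their names (ending in _s_at), the leading ones of KLKB1, PROC and PROS1 and the third of PROS1 are of a type whose probes can match more than one transcript. Those leading F9 and TFPI have names ending in _a_at. What the probes of any probe set match was not examined.

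The livers came from Ross x Ross broilers labelled male, a fast-growing meat-type cross, and each liver was hybridized to its own Affymetrix Chicken Genome Array. There were 4 embryos at each of E16, E18 and E20 (days of incubation) and 4 hatchlings at each of D1, D3 and D9 (days after hatch), 24 arrays in all. Embryos were in ovo, D1 chicks were unfed, and D3 and D9 chicks were fed. By the study's methods, D1 livers came from chicks still in the incubator. The chicks kept for later ages received a Marek's disease vaccine and were housed in a heated brooder. Age, feeding, vaccination and housing therefore cannot be told apart in contrasts of D3 or D9 with stages up to D1. Hatching joins them where the earlier stage is embryonic, and in all hatchlings vs. all embryos. For D1 against an embryonic age, age and hatching cannot be told apart. Values are log2 intensities, and a difference of 1 on this scale is a doubling. Ratios are the later age minus the earlier age, which is the opposite sign to that used in the study. A probe set was called where limma's moderated test gave an adjusted p of 0.05 or less and the log2 ratio was at least 0.75 in size. A signal under 4.43 is treated as near background, since 25 percent of all probe sets have a mean below it.

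The liver makes most of the circulating clotting proteins. In the cascade, tissue factor with factor VII starts the process, factors IX and X carry it forward, and prothrombin (F2) is cut to thrombin, which turns fibrinogen into fibrin. The cascade is held back by tissue factor pathway inhibitor (TFPI), by the serpin antithrombin, by protein Z with its own serpin, and by protein C with its cofactor protein S, which destroys the active cofactors V and VIII. Prothrombin, factors VII, IX and X, and proteins C, S and Z all need vitamin K, since their glutamates are carboxylated before secretion.

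Albumin (ALB) and transthyretin (TTR), which mark hepatocytes and so check the tissue label, were at 15.14 and 14.50 in hatchlings and 15.19 and 14.35 in embryos. The mean of 6 hepatocyte markers lay between 14.54 and 14.62 at D9 and between 13.54 and 13.87 at E16, a shift in which FABP1 alone was called (3.48 in hatchlings over embryos). Array E18 replicate 2 stood apart in the W-linked gene HINTW (12.17, with 6.05 the next highest array). All livers are labelled male, so the sex of this liver is in doubt. D9 replicate 1 stood apart in the heart gene NPPA (8.11, with 5.23 the next highest). The mean of the 4 measured heart markers reached 7.21 among the D9 livers, with at most 5.07 at any other age. Without both arrays the members' calls in all hatchlings vs. all embryos stayed at 7, and those in D3 vs. E18 numbered 13 in place of 14.

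In the contrast of all hatchlings with all embryos, 7 of the 17 probe sets were called lower and 0 higher, where 2.85% of all probe sets were called lower and 3.15% higher. The 7 probe sets belong to 5 genes, F2, KLKB1, PROC, PROZ and TFPI. The median log2 ratio over the leading probe sets of the 9 genes was -0.87, while that over all probe sets was -0.02. The widest contrast was D3 vs. E18, with 14 of 17 called lower and 0 higher, against 4.19% of all probe sets called lower and 6.39% higher. There the median of the 9 genes was -1.34 (-0.06 over all probe sets), and F10 was the one gene of the 9 with no called probe set. In D3 vs. E20 there were 8 lower calls in 6 genes (background 3.84%), without F7, F10 or any TFPI probe set, and the call of the second PROS1 probe set (-1.23) was lost without E20 replicate 1 or 4 or D3 replicate 1 or 3 (adjusted p from 0.0524 to 0.0848). The moderated F test over the 6 ages passed for 16 of 17 probe sets, where it passed for 33.4% of all probe sets.

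**Figure D1:**
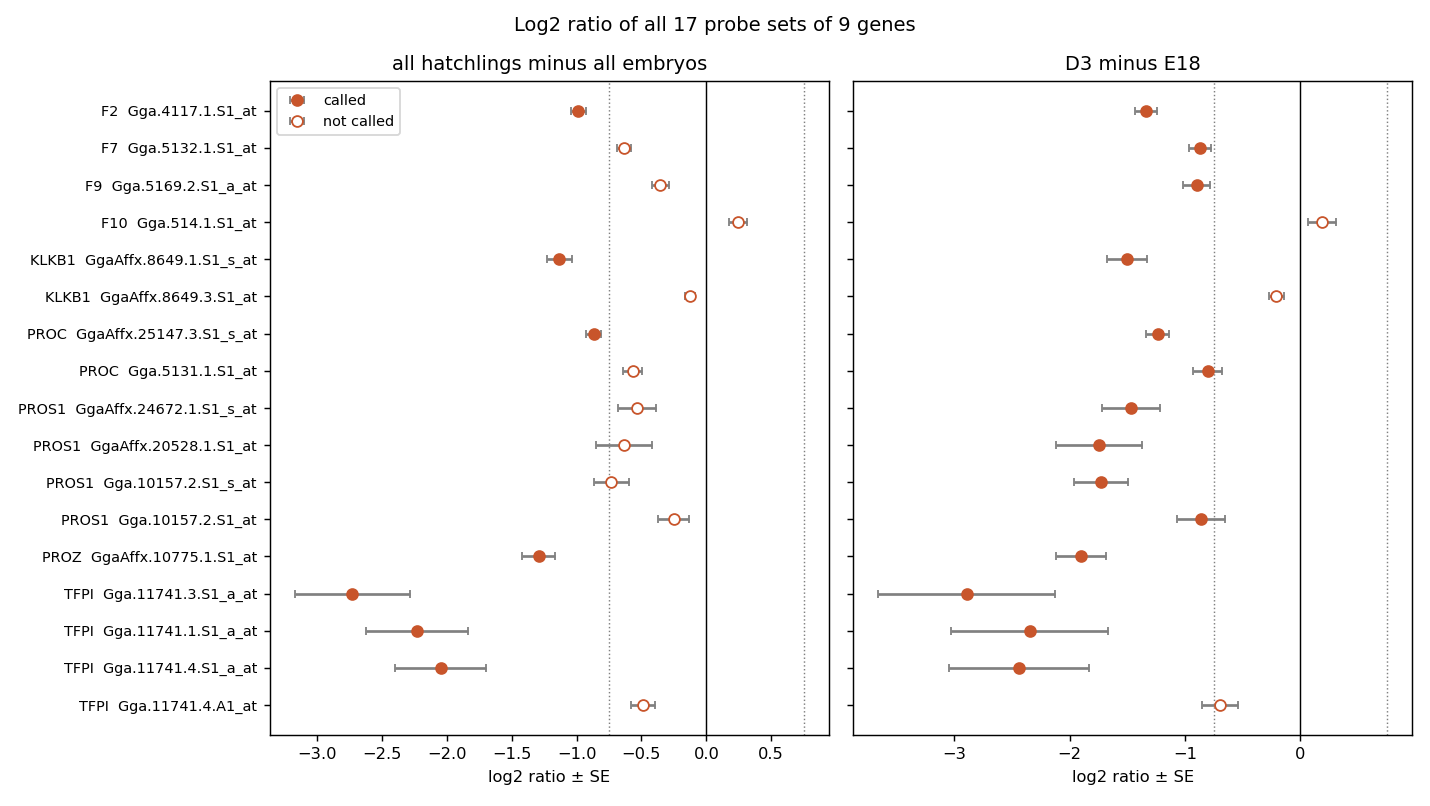
Log2 ratio ± SE (x axis) of every probe set of the 9 measured genes (y axis) for all hatchlings minus all embryos (left) and D3 minus E18 (right). Filled points are called, and the dotted lines mark a log2 ratio of 0.75 in either direction. All points but that of F10 lie left of 0, and TFPI has the lowest values and the widest errors.

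F2 encodes prothrombin, the precursor of thrombin. Its signal was 12.83, 12.82, 13.02 and 13.11 in the E16 livers, 13.60, 13.50, 13.20 and 13.43 at E18, and 12.97, 13.27, 13.12 and 13.12 at E20. After hatch it was 12.21, 12.37, 12.46 and 12.45 at D1, 11.97, 12.14, 12.10 and 12.16 at D3, and 12.11, 11.92, 12.03 and 12.26 at D9. Every hatchling lay below every embryo, which among the 17 probe sets was seen for F2 alone (1.24% of all probe sets had all hatchlings below all embryos). F2 averaged 12.18 in hatchlings and 13.17 in embryos, a log2 ratio of -0.99 ± 0.06 (SE, adjusted p = 3.96e-12), or 1.98-fold. The step at hatch, D1 vs. E20, was -0.75 (adjusted p = 1.17e-05) and fell just short of the limit on the ratio. It passed that limit when E20 replicate 1 was left out (-0.80), and likewise without D1 replicate 3 or D1 replicate 4 (-0.78 for both). D3 and D9 did not differ beyond their spread (-0.01, adjusted p = 0.981).

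F7 encodes the protease that tissue factor binds to start clotting. The E16 livers read 11.82, 12.23, 11.95 and 12.13, the E18 livers 12.02, 11.84, 11.94 and 11.91, and the E20 livers 11.71, 11.52, 11.61 and 11.45. The D1 livers read 11.29, 11.52, 11.35 and 11.56, the D3 livers 10.95, 11.05, 10.96 and 11.27, and the D9 livers 11.24, 11.06, 11.09 and 11.20. The lower levels set in before hatch, since every E20 liver was below every E18 liver (-0.36, adjusted p = 0.0198, under the limit on the ratio). D3 vs. E18 was called at -0.87 ± 0.09 (adjusted p = 2.29e-07) and D3 vs. E16 at -0.97. All hatchlings vs. all embryos gave -0.63 ± 0.05 (adjusted p = 3.67e-09), lower on 4 of 4 hybridization days but short of the limit of 0.75. Each day held 1 liver of every age, and replicate numbers were taken as the days, which the sample titles do not give.

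F9 encodes factor IX, which with its cofactor activates factor X. It was 11.75, 11.94, 11.95 and 12.04 at E16, 12.32, 12.58, 12.40 and 12.46 at E18, and 12.93, 12.97, 12.73 and 12.91 at E20, with no overlap between these ages. It was then 12.55, 12.54, 12.86 and 12.64 at D1, 11.20, 11.52, 11.49 and 11.96 at D3, and 12.07, 11.85, 12.01 and 12.06 at D9. F9 was the member with a call in the egg. E20 vs. E16 was 0.96 ± 0.12, the 1 higher call among the 17 probe sets in that contrast (background 1.53% higher). The drop came between D1 and D3 rather than at hatch. D3 vs. D1 was -1.10 ± 0.12 (2.15-fold), with no overlap, and D1 vs. E20 was -0.24 (adjusted p = 0.258). D9 stood 0.45 above D3 (adjusted p = 0.027), under the limit on the ratio. The opposite changes before and after hatch left all hatchlings vs. all embryos at -0.35 ± 0.07 (adjusted p = 0.000234), not called.

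F10 encodes factor X, whose active form cuts prothrombin. Its levels were 11.63, 12.01, 11.93 and 11.99 at E16, 12.07, 12.32, 11.87 and 11.89 at E18, and 11.98, 11.52, 11.48 and 11.64 at E20. In hatchlings they were 11.95, 11.84, 12.03 and 11.95 at D1, 12.46, 12.09, 12.33 and 12.03 at D3, and 12.24, 12.11, 12.22 and 12.02 at D9. F10 was the member without a lower level after hatch. Its highest mean was that of D3 (12.23 ± 0.20, SD, n = 4) and its lowest that of E20 (11.65 ± 0.22), and these 2 ages did not overlap (0.57, adjusted p = 0.00118, not called). All hatchlings vs. all embryos gave 0.24 ± 0.07 (adjusted p = 0.00873), higher on 4 of 4 days. No neighbours in the order of the age means (D3, D9, E18, D1, E16, E20) differed, with adjusted p from 0.294 to 0.878.

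KLKB1 encodes plasma prekallikrein, in mammals a protease of the contact pathway. Its leading probe set was at 8.40, 8.62, 8.34 and 8.57 at E16, 8.61, 8.25, 8.75 and 8.76 at E18, and 8.76, 8.88, 8.88 and 8.64 at E20. At D1 it was 7.99, 8.01, 8.60 and 8.45, at D3 6.97, 6.87, 6.80 and 7.72, and at D9 7.16, 6.82, 7.23 and 7.25. All D3 and D9 livers lay below all others, while D1 overlapped E16 and E18. The called step was D3 vs. D1 at -1.17 ± 0.17 (2.26-fold), where with F9 and PROZ it made up the 3 lower calls of 17 (background 1.25%). D3 vs. E20 was -1.70 ± 0.17 (adjusted p = 1.15e-07) and all hatchlings vs. all embryos -1.13 ± 0.10 (adjusted p = 5.91e-09). The second KLKB1 probe set stayed between 3.32 and 3.67 on all arrays, under the 4.43 mark, and was not called in any contrast. Averaging both lowered the ratio of all hatchlings vs. all embryos to -0.63, short of the limit.

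**Figure D2:**
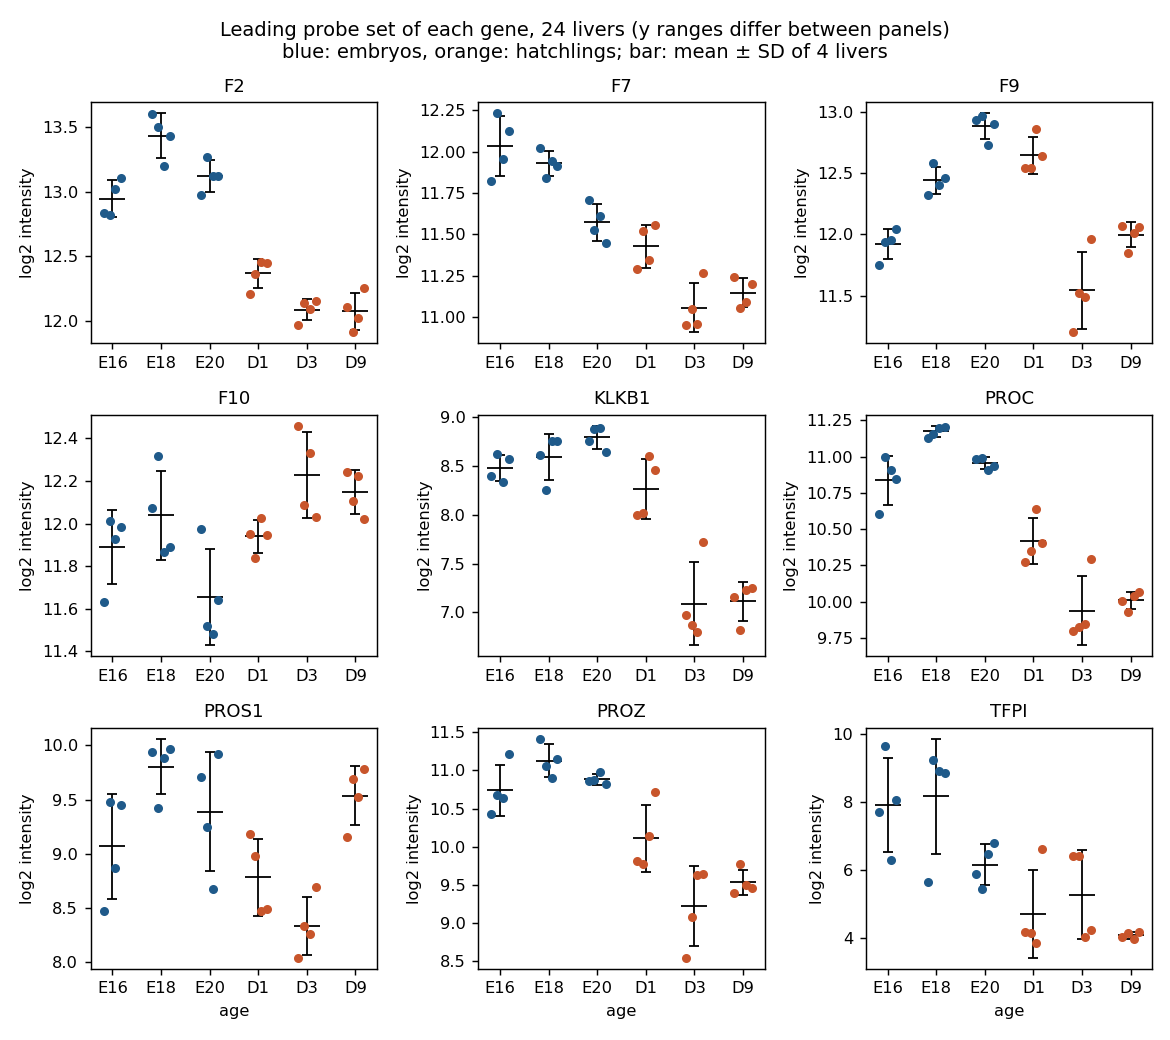
Log2 intensity (y axis, own range per panel) of the leading probe set of each of the 9 genes by age (x axis, E16 to D9). Points are single livers (blue embryos, orange hatchlings) and black bars the mean ± SD of 4 livers. F2, KLKB1, PROC and PROZ are low at D3 and D9, F9 peaks at E20, F10 lacks a lower level after hatch, PROS1 is back up at D9, and TFPI scatters within ages.

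Among the inhibitors, PROC encodes protein C, the anticoagulant protease that thrombin activates on thrombomodulin. The leading probe set gave 10.60, 10.999, 10.90 and 10.84 at E16, 11.13, 11.16, 11.20 and 11.21 at E18, and 10.98, 10.99, 10.90 and 10.94 at E20. It gave 10.27, 10.35, 10.64 and 10.41 at D1, 9.79, 9.82, 9.84 and 10.29 at D3, and 10.002, 9.93, 10.04 and 10.07 at D9. The E18 livers stood above all others, and the D3 and D9 livers, apart from D3 replicate 4, stood below all others. D3 vs. E18 was -1.24 ± 0.10 (adjusted p = 3.77e-09) and all hatchlings vs. all embryos -0.87 ± 0.06 (adjusted p = 6.92e-11). The difference was spread over both intervals, D1 vs. E20 (-0.54, adjusted p = 0.000919) and D3 vs. D1 (-0.48, adjusted p = 0.00335), each under the limit on the ratio. The second PROC probe set moved the same way with smaller ratios, -0.80 in D3 vs. E18 (called, adjusted p = 2.88e-05) and -0.57 in all hatchlings vs. all embryos (not called). Its D3 vs. E18 call was lost without E18 replicate 4 or D3 replicate 1 (-0.74 for both), and the mean of both probe sets gave -0.72 in all hatchlings vs. all embryos.

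PROS1 encodes protein S, the cofactor of active protein C. The leading probe set was 8.47, 9.48, 8.87 and 9.45 at E16, 9.94, 9.42, 9.89 and 9.96 at E18, and 9.71, 9.25, 8.68 and 9.93 at E20. It was 9.19, 8.99, 8.47 and 8.49 at D1, 8.04, 8.34, 8.27 and 8.70 at D3, and 9.15, 9.69, 9.53 and 9.78 at D9. Livers of 1 age spread widely, with a within-age SD of 0.38 that exceeded that of 95.4% of all probe sets, and E16 replicate 1 and E20 replicate 3 were the lowest of their ages on all 4 probe sets. The lowest age was D3. D3 vs. E18 was called on all 4 probe sets, at -1.47, -1.75, -1.73 and -0.87 (adjusted p = 9.73e-05, 0.000955, 6.13e-06 and 0.00285), although the last, which averages 4.37 and so lies near background, lost its call without E18 replicate 1 (-0.67).

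PROS1 was also the one member called higher at D9 than at D3, with 2 of its probe sets the only calls among the 17 (background 0.635% higher). The leading probe set rose by 1.20 ± 0.25 (2.30-fold, adjusted p = 0.00537) and the third by 1.36 ± 0.24 (2.56-fold, adjusted p = 0.000998), both with every D9 liver above every D3 liver. The second probe set gave 1.24 (adjusted p = 0.0637), which passed with the hybridization day as a block (adjusted p = 0.0327), and also without E16 replicate 1 (adjusted p = 0.0256), E20 replicate 3 (0.0345) or E20 replicate 4 (0.046). The fourth probe set gave 0.61 (adjusted p = 0.123). Since D9 lay near the embryonic levels, all hatchlings vs. all embryos gave only -0.54 on the leading probe set and none of the 4 was called. Of these, the third was at -0.73 (adjusted p = 0.000173), close to the limit, and passed it when certain single arrays were left out, with a lowest ratio of -0.81 without E20 replicate 3. The second (-0.63) passed it without E16 replicate 1 (-0.77). In D9 vs. D1, the third probe set was called at 0.89 (adjusted p = 0.0146, background 2.52% higher), and was not called without D9 replicate 2 (0.80, adjusted p = 0.0558). The leading probe set, at 0.76 with an adjusted p of 0.0571, passed with the hybridization day as a block (adjusted p = 0.0423), and in the fit without E16 replicate 1, E20 replicate 3 or 4, D1 replicate 1 or D9 replicate 1 (0.76 to 0.89). D9 replicate 1, the array high in NPPA, had the lowest D9 value on all 4 PROS1 probe sets, and E18 replicate 2, the array high in HINTW, the lowest E18 value.

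PROZ encodes protein Z, which brings its serpin to active factor X. The embryonic livers read 10.43, 10.68, 10.64 and 11.21 at E16, 11.41, 11.05, 10.89 and 11.15 at E18, and 10.86, 10.87, 10.98 and 10.82 at E20. The hatchlings read 9.81, 9.78, 10.14 and 10.72 at D1, 8.55, 9.09, 9.64 and 9.64 at D3, and 9.40, 9.78, 9.50 and 9.46 at D9. All D1 livers lay below all E20 livers and all D3 livers below all D1 livers, so PROZ fell at hatch and again by D3. All hatchlings vs. all embryos gave -1.29 ± 0.12 (2.45-fold, adjusted p = 2.64e-08) and D3 vs. E18 -1.90 ± 0.22 (3.73-fold, adjusted p = 5.56e-07). D1 vs. E20 was called at -0.77 (adjusted p = 0.025), with the third PROS1 probe set (-0.76, adjusted p = 0.043) the other of 2 lower calls (background 1.67%). The leading PROS1 probe set (-0.61) was called too without E20 replicate 3 (-0.85). The PROZ call was lost without E20 replicate 2 or 3 or D1 replicate 1 or 2 (-0.66 to -0.77, adjusted p from 0.0517 to 0.0924). The PROS1 call was lost without E20 replicate 1 or 4, D1 replicate 2, 3 or 4, or D9 replicate 3 (-0.57 to -0.78, adjusted p from 0.0504 to 0.156). The PROZ call in D3 vs. D1 (-0.88, adjusted p = 0.013) was lost without D1 replicate 4 (-0.68) or D3 replicate 1 (-0.66, adjusted p = 0.0651).

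TFPI encodes the Kunitz-type inhibitor of active factor X and of the tissue factor and factor VII complex, in mammals made largely by endothelial cells. Its leading probe set was 7.71, 9.65, 6.29 and 8.07 at E16, 5.66, 9.25, 8.91 and 8.87 at E18, and 5.89, 5.45, 6.48 and 6.80 at E20. It was 4.20, 4.15, 3.86 and 6.62 at D1, 6.42, 6.41, 4.05 and 4.24 at D3, and 4.03, 4.16, 3.97 and 4.18 at D9. In 4 of 4 D9 livers, 3 of 4 D1 livers and 2 of 4 D3 livers the signal was below 4.43, whereas every embryo was above it. All hatchlings vs. all embryos gave the lowest ratio of the 9 genes, -2.73 ± 0.44 (adjusted p = 3.55e-05), with means of 4.69 and 7.42. A ratio against a signal near background may understate the size of a fall.

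TFPI was also the member that differed most between livers of 1 age, with a within-age SD of 1.19 that exceeded that of 99.9% of all probe sets. The first 3 of its 4 probe sets gave the same picture liver by liver. On the second and the third, all hatchlings vs. all embryos gave -2.23 and -2.05 (both called). Their deviations from the age means had r of 0.97 and 0.95 with those of the leading set over 24 arrays. The probe sets on an array read the same RNA. The fourth averages 4.40 over the arrays, near background, and gave -0.49 (adjusted p = 0.0002, not called). On the 3 concordant probe sets E18 replicate 1 was at 5.66, 5.501 and 5.001, with the other E18 livers between 7.68 and 9.25, and D1 replicate 4 was at 6.62, 6.29 and 6.12, with the other D1 livers between 3.75 and 4.70. Neither of these arrays was the one that stood apart in HINTW or NPPA.

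D3 vs. E18 was called on these 3 probe sets at -2.89, -2.35 and -2.44 (adjusted p = 0.00631, 0.0122 and 0.00405), although D3 and E18 livers overlapped through the low E18 replicate 1. The second of these calls was lost without D3 replicate 3 (-1.89, adjusted p = 0.0538), and also without both E18 replicate 2 and D9 replicate 1 (-1.996, adjusted p = 0.0556). E20 vs. E18 was not called (-2.02, -1.92 and -1.65, adjusted p from 0.0992 to 0.13). It was called on all 3 when E18 replicate 1 was left out (-2.86, -2.59 and -2.37). The fourth TFPI probe set at -0.70 in D3 vs. E18 was not called but was without E18 replicate 1 (-0.84) or D3 replicate 1 (-0.75), and with array weights (-0.75).

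**Figure D3:**
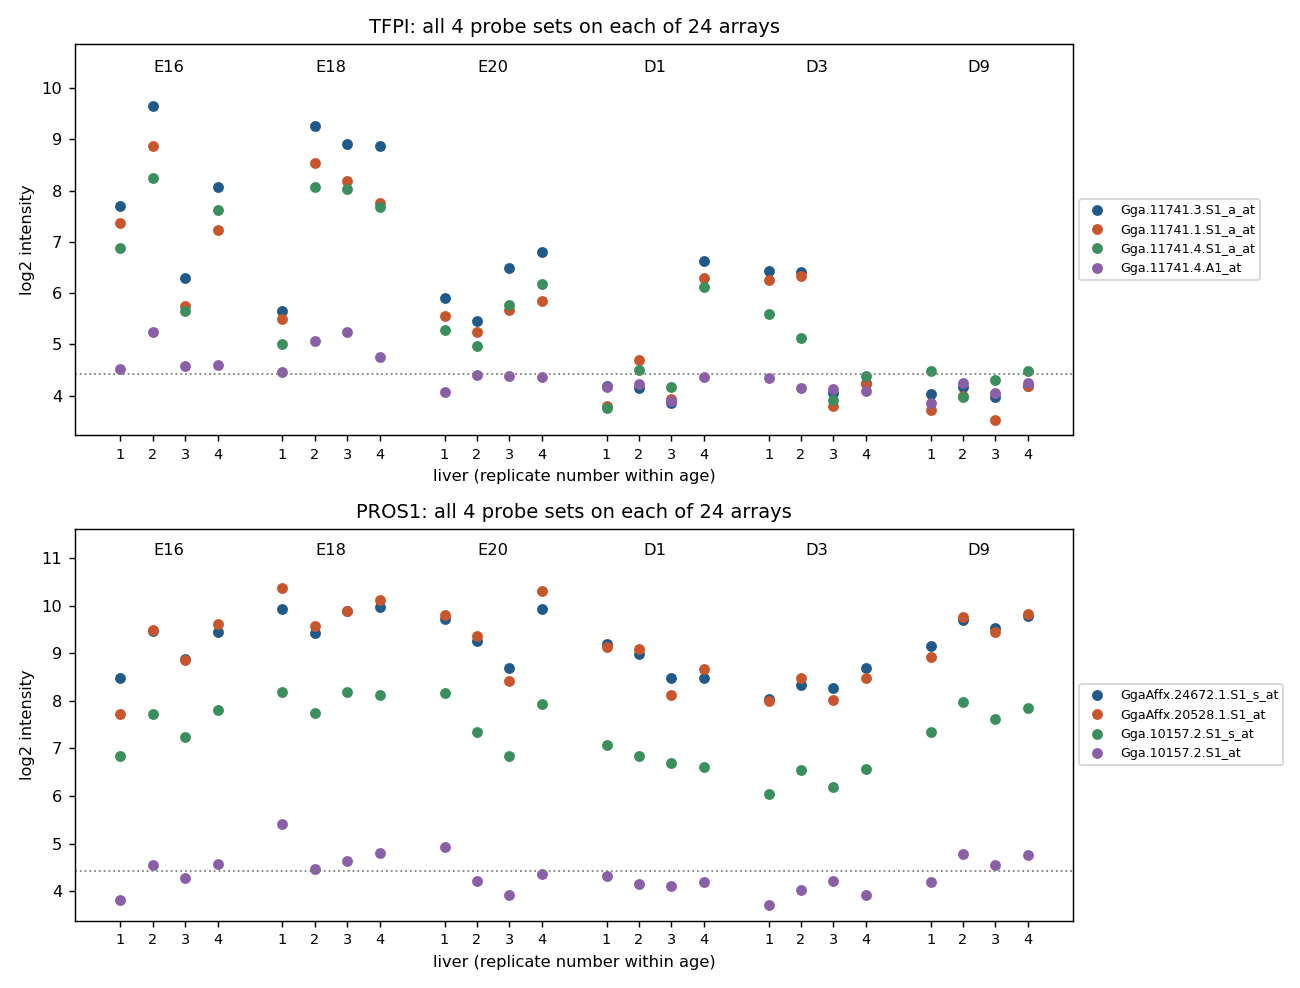
Log2 intensity (y axis) of the 4 TFPI (top) and 4 PROS1 (bottom) probe sets on each of the 24 arrays, livers numbered 1 to 4 within each age (x axis). The dotted line marks 4.43, the level that 25 percent of probe set means fall below. For each gene 3 probe sets move together from liver to liver, with E18 replicate 1 low and D1 replicate 4 high for TFPI.

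Markers of some other liver cells moved between these ages. Of all probe sets, 4.19% were called lower in D3 vs. E18. In either direction, 2.64% were called in E20 vs. E18 and 0.851% in E18 vs. E16. The mean of 8 endothelial markers lay between 7.58 and 7.97 at D3 and between 8.46 and 8.67 at E18, and 3 of 8 (CDH5, ERG and EGFL7) were called lower in D3 vs. E18, at -0.88, -0.998 and -0.92. The mean of 6 stellate cell and fibroblast markers lay between 10.11 and 10.37 at D3 and between 11.22 and 11.42 at E18, with 5 of 6 called lower. The 3 measured erythroid markers (of 6) averaged between 9.82 and 10.08 at E20 and between 11.15 and 11.83 at E18. Of these, 2 of 3 were called lower in E20 vs. E18 (the hemoglobin genes HBAD at -2.52 and HBA1 at -1.49) and 1 lower in D3 vs. E18 (HBAD, -0.90). In D3 vs. D1 the ratios of HBAD and HBA1 were 1.29 and 1.24. However, 1 of the 3 probe sets of each gave ratios near 0. The 6 macrophage markers had 0 calls in D3 vs. E18, with a median of 0.21. The 3 measured thrombocyte markers (of 7) were not called in D3 vs. E18, but 1 of 3 was called lower in E18 vs. E16 and in E20 vs. E18. Among them TUBB1 averaged 7.35 at E16, 6.29 at E18 and 5.54 at E20. ITGB3 did not follow it, at 7.66, 7.80 and 7.70 at these ages. GP9 was at 4.78, 5.01 and 4.78, close to background, where a fall may not show. In bulk liver, fewer cells of a type and less RNA per cell cannot be told apart, and the part of these cells in the members' values was not tested.

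The remaining pairs of ages gave calls in different sets of members. Against E18, D1 had 9 lower calls (background 2.73%) in F2, PROC, PROS1, PROZ and TFPI, and D9 had 9 (background 3.76%) in F2, F7, KLKB1, PROC, PROZ and TFPI. Against E16, D1 had 3 lower calls (background 2.79%), all TFPI, D3 had 9 (background 4.24%) and D9 had 8 (background 4.42%). D9 vs. E20 gave 5 lower calls (background 3.46%), 1 each in F2, F9, KLKB1, PROC and PROZ. D9 vs. D1 gave 1 lower call (background 2.19%), KLKB1 at -1.15 ± 0.17. Some of these calls hung on single arrays. In D1 vs. E18, PROC (-0.76) was lost without E18 replicate 3 or 4 or D1 replicate 1 or 2 (-0.71 to -0.75), and the second PROS1 probe set (-1.23) without E18 replicate 1 or 4 or D1 replicate 3 or 4 (adjusted p from 0.0503 to 0.0858). In D3 vs. E16, the leading TFPI probe set (-2.65) was lost without E16 replicate 2 or D3 replicate 3 or 4 (-2.07 to -2.30), and the second (-2.15) also without E16 replicate 1 (-1.63 to -2.13 over these 4 arrays). The second TFPI probe set in D1 vs. E16 (-2.62) was lost without E16 replicate 2 (-2.10, adjusted p = 0.055), and the fourth in D9 vs. E18 (-0.77) without E18 replicate 2 or 3 or D9 replicate 1 (-0.65 to -0.72). Other ratios gained a call in this way, among them F9 in D1 vs. E16 (0.72), at 0.76 without D1 replicate 1 or 2 and 0.77 without E16 replicate 4. Within the egg, 0 of 17 were called in E18 vs. E16 (background 0.851%) and 0 in E20 vs. E18 (background 2.64%). At an unadjusted p under 0.05 there were 7 in E18 vs. E16 (14.4% of all probe sets) and 11 in E20 vs. E18 (19.5%), in either direction.

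From liver to liver within an age, some members varied together. Over 24 arrays the deviations from the age means had r = 0.83 for F9 with PROC and 0.77 for KLKB1 with PROC, the highest of all pairs of the 9 leading probe sets, while pairs that included TFPI or F10 ran from -0.31 (F2 with TFPI) to 0.09 (F7 with TFPI). All members on an array were read from the same RNA, so differences between livers cannot be told apart from those between RNA samples or arrays. No test was made. D3 replicate 4 was the highest of the D3 livers for F2, F7, F9, KLKB1, PROC and PROS1, and narrowly for PROZ (9.6404, next 9.6369). For PROC it stood far above the other D3 livers (10.29, next 9.84). The r values of F9 and KLKB1 with PROC may rest largely on this array and were not computed without it. The named genes outside the set whose levels over the 24 arrays ran closest to a member were CTSO (r = 0.98) and CTSV (0.97) for F2, F2RL2 and TSPAN13 (0.92 each) for F7, and C8orf22 and MGLL (0.89 each) for F9. For F10 they were LOC424014 (0.81) and BUB1 (0.77), for KLKB1 LOC421740 and SLC7A2 (0.96 each), for PROC CTSV and SEMA6D (0.96 each), and for PROZ BLVRA and FN3K (0.93 each). For PROS1 they were CNKSR3 (0.80) and YPEL5 (0.75), and for TFPI CTNND2 (0.88) and SP3 (0.86). These r values were taken over 12931 genes and mostly follow the age means, so they are a description only.

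PROZ, F10 and F7 lie side by side on chromosome 1 in the RefSeq annotation of the GRCg7b assembly, in the order PROZ, LOC771012, F10, F7. Whether their ratios differ from each other was not tested. In D3 vs. E18, PROZ gave -1.90, LOC771012 -0.81 (called, adjusted p = 0.00799), F10 0.19 (0.04 after cyclic loess, not called in either) and F7 -0.87. The next genes outside this run were PCID2 beyond PROZ (0.70, adjusted p = 0.00923) and MCF2L beyond F7 (-0.64, adjusted p = 0.000693), neither called. KLKB1 and F9 are on chromosome 4, PROS1 is on chromosome 1, and F2, TFPI and PROC are on chromosomes 5, 7 and 9.

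Of 35 other clotting genes listed, 26 were measured. In D3 vs. E18, 6 of the 26 leading probe sets were called lower, 1 higher and 19 not called, with a median of -0.28. Of all probe sets, 4.19% were called lower and 6.39% higher. The lower ones held the cofactors of the cascade. F5 (factor V, the cofactor of active factor X) was at 11.80 ± 0.17 at D3 and 12.94 ± 0.10 at E18 (SD, n = 4), a ratio of -1.14 (adjusted p = 4.65e-09) called on all 3 of its probe sets. F8 (factor VIII, the cofactor of active factor IX) gave -0.92 and VWF (von Willebrand factor, its carrier) -1.19, but their probe sets disagreed, from -0.92 to -0.15 for F8 and from -1.19 to -0.05 for VWF. F12, which in mammals encodes factor XII of the contact pathway, gave -0.92 (adjusted p = 5.54e-07), and CPB2, which encodes a carboxypeptidase that slows fibrin breakdown, -0.94 (adjusted p = 1.06e-06). F13B, the carrier subunit of the fibrin cross-linking enzyme, gave -0.81 with probe sets from -0.81 to -0.17.

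VWF, like PROS1, was higher at D9 than at D3 (0.79, adjusted p = 0.000867), the 1 called gene of 26 (background 0.635% higher). The fibrinogen genes FGA, FGB and FGG, which encode the substrate of thrombin, were not called on their leading probe sets in D3 vs. E18 (-0.41, -0.10 and -0.13), although the second FGA probe set was called at -0.84. The leading ones averaged 14.07, 14.27 and 14.59 at D3 and 14.48, 14.37 and 14.71 at E18, close to the highest value on any array (15.24), and whether signals this bright are compressed was not tested. The surface starters and brakes F3 (tissue factor), THBD (thrombomodulin), PROCR (the protein C receptor) and TFPI2 had 0 calls of 4, with F3 near background (4.50 ± 0.31 at D3 and 4.12 ± 0.02 at E18). PLG (plasminogen) gave -0.47, and the serpin genes SERPIND1 (heparin cofactor II) and SERPINA10 (the partner of protein Z) gave -0.65 and 0.19, none called. In the vitamin K cycle VKORC1, which regenerates the reduced vitamin, gave -0.37 (not called). Its signal was near background (4.48 ± 0.16 at D3 and 4.85 ± 0.20 at E18). The paralog VKORC1L1 was the 1 higher call, at 0.78 (adjusted p = 0.000173), with probe sets from 0.13 to 1.83. In all hatchlings vs. all embryos 2 of 26 were called lower (background 2.85%), F5 at -0.84 and F12 at -0.76, and 0 higher (background 3.15%).

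**Figure D4:**
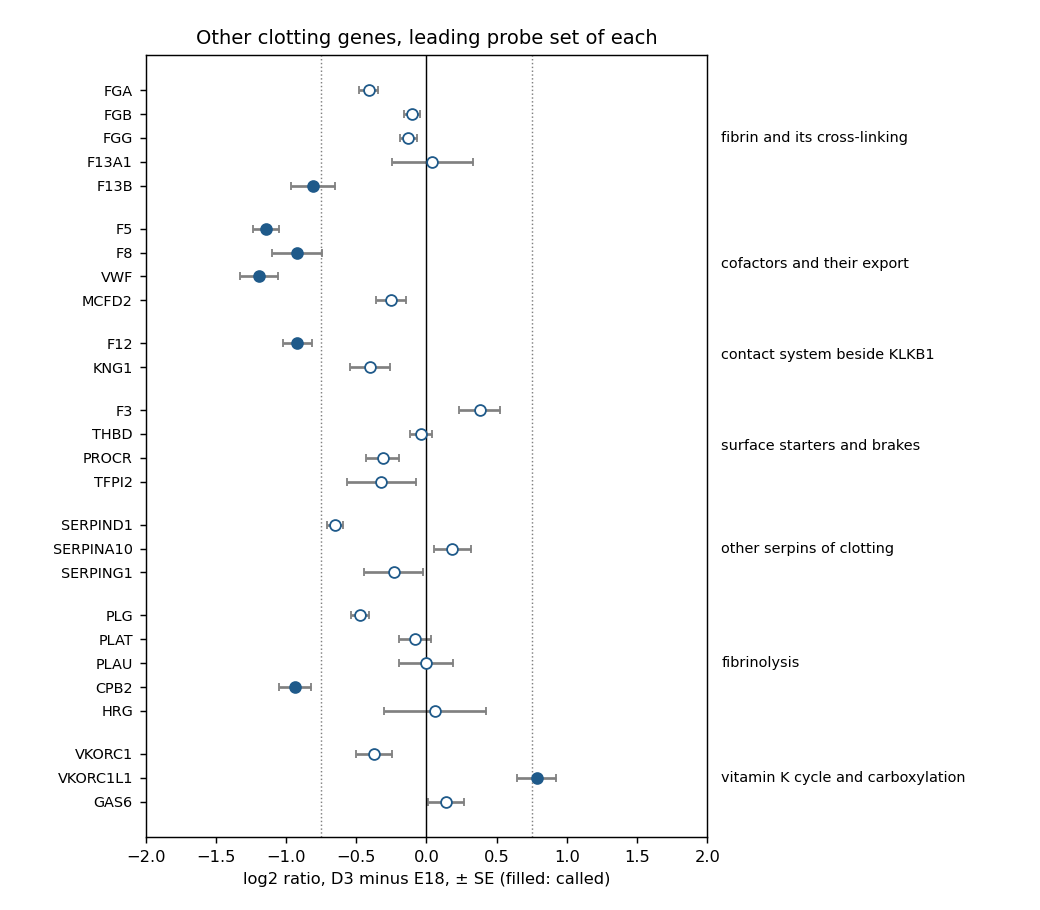
Log2 ratio of D3 minus E18 ± SE (x axis) for the leading probe set of 26 other clotting genes (y axis), grouped by role. Filled points are called, and dotted lines mark a ratio of 0.75 in either direction. The cofactor genes F5 and F8 lie left of the lines, as do VWF, F12, CPB2 and F13B. The fibrinogen genes FGA, FGB and FGG lie between the lines.

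Of 8 regulators of liver genes listed, 6 were measured. The shares of all probe sets called in D3 vs. E18 were 4.19% lower and 6.39% higher. In D3 vs. E18, 3 were called lower, PPARGC1A (a coactivator of nuclear receptors, -2.36), NR1H4 (the bile acid receptor, -2.09) and SIRT1 (a deacetylase, -1.46), and CEBPB, a transcription factor of the acute-phase response, was called higher (0.98, adjusted p = 0.00105). HNF4A, a hepatocyte transcription factor with known roles at clotting gene promoters in mammals, gave -0.57 (adjusted p = 0.0277) and CEBPA 0.36 (adjusted p = 0.234), neither called. The probe sets of NR1H4 ran from -2.09 to -0.36 and those of SIRT1 from -1.46 to -0.13. PPARGC1A averaged 6.98 ± 0.53 at D3 and 9.37 ± 0.11 at D1 (SD, n = 4), a step of -2.39 in D3 vs. D1. NR1H4 averaged 10.08 ± 0.49 at E20, 8.98 ± 0.29 at D1 and 8.86 ± 0.35 at D3. SIRT1 averaged 7.31 ± 0.35, 6.47 ± 0.51 and 5.88 ± 0.26 at these ages. Whether any of these regulators bears on the members' levels was not tested.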

How the data were processed

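Hepatic transcripts were measured on 24 Affymetrix Chicken Genome Arrays, 1 per liver. The values deposited by the authors are log2 intensities from RMA (background correction, quantile normalization, 1 value per probe set), with limma 3.30.13 in the submitters' processing notes. Array medians were 5.43 to 5.55. Of 38535 probe sets, 96 controls were left out. By the platform annotation, 27168 probe sets have 1 gene symbol, 177 have several and 11094 have no symbol.

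Each of 38439 probe sets was fitted in limma 3.58.1 (R 4.3.3) with 1 mean per age over all arrays, followed by two-sided moderated tests (Benjamini-Hochberg over all of them). On simulated data for D3 vs. E18 the fit called 88 of 100 probe sets changed by 1 and 100 of 100 changed by 2. It called 2 of 38239 unchanged ones. The simulated noise was independent between probe sets, and far fewer probe sets were changed than were called in the data. These rates need not hold for the data. Figures used matplotlib 3.10.9. The number of arrays limits the precision.

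Replicate numbers were taken as the hybridization days, an assumption that the sample titles do not settle. The study's methods place 1 replicate of each age on each of 4 hybridization days. Deviations from age means correlated at 0.071 over 60 same-day and -0.0234 over 180 different-day pairs. Alternatives were that day as a block, cyclic loess, array weights, a trended robust prior, a filter on dim probe sets, only the arrays compared, 2 plain groups, averaged probe sets per gene, and arrays left out.

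All members were described with all probe sets. Other clotting genes come from lists, with up to 4 called genes named per list, and uncalled ones, chromosomal neighbours (the next gene on either side) and single probe sets were added after their values were seen. The members and lists were chosen with earlier results of these data known. The sample labels give the stage e16 for E18 and E20 livers too, against their titles, which were used here.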

Additional observations from a re-analysis of the deposited data

Results flagged for a closer look

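Within each age, the highest or lowest of 4 livers was set against the others for all 17 probe sets, and 8 of the 102 groups had a liver far from the rest. Chance flags about 1 in 20 groups. Probe sets of the same gene share deviations from liver to liver, so these groups are not independent and the count cannot be weighed against that rate. For TFPI, E18 replicate 1 was low on the leading probe set (5.66, next 8.87) and on the third (5.001, next 7.68), and D1 replicate 4 was high on the leading one (6.62, next 4.20). On the fourth TFPI probe set, E16 replicate 2 was high (5.24, next 4.60) and E20 replicate 1 low (4.07, next 4.36). For PROS1, E18 replicate 2 was low on the leading probe set (9.42, next 9.89) and on the third (7.75, next 8.13). This is the array with HINTW at 12.17. For PROC, D3 replicate 4 was high on the leading probe set (10.29, next 9.84).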

How the results depend on the processing

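Counts of called members in the hatchling vs. embryo contrast, D3 vs. E18, D3 vs. E20 and the F test stayed within 1.5 times their values under every alternative in which they were counted. They were not counted with averaged probe sets, where KLKB1 and PROC fell short of the limit in all hatchlings vs. all embryos. No ratio of a member in the contrasts of all hatchlings vs. all embryos and D3 vs. E18 changed sign. That of F10 in D3 vs. E18 (0.19) was 0.04 after cyclic loess and 0.11 to 0.28 with an array left out. With each array left out in turn the counts ranged from 7 to 9, from 13 to 14, from 7 to 9 and from 15 to 17. With the replicate number, taken as the hybridization day, as a block the counts were 7, 14, 8 and 16, as without it. The block changed no other call than those in D9 vs. D1 and D9 vs. D3 given above for PROS1. Fitting only the arrays compared was not run for all hatchlings vs. all embryos, where it is the same fit. Signals near background limit what can be said of TFPI after hatch, of the second KLKB1 probe set and of the dimmest PROS1 and TFPI probe sets. The same holds for F3, VKORC1 and GP9.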

Other observations

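A further probe set carries the symbols of both PROC and LOC424748 and was left out of the counts. These genes are next to each other on chromosome 9 in GRCg7b. In embryos its level was 9.82 ± 0.13 at E16, 9.83 ± 0.25 at E18 and 9.61 ± 0.14 at E20 (SD, n = 4 each). In hatchlings it was 8.92 ± 0.28 at D1, 8.28 ± 0.51 at D3 and 8.38 ± 0.21 at D9. All hatchlings vs. all embryos gave -1.22 (adjusted p = 7.29e-09) and D3 vs. E18 gave -1.55. The signal of the 2 genes on this probe set cannot be told apart.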
